A study of Mus musculus with 4 samples.

Results

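Adipoq, Lpl, Cfd, Fabp4, Scd1 and Pparg are genes of fat cells and of lipid uptake, and their transcripts were examined in mouse skeletal muscle on arrays coded J and NJ. Members were all probe sets, the groups of short probes that each report 1 signal, whose single gene symbol in the platform's gene table was one of these 6 genes. This gave 8 of the 12488 probe sets on the array, for 5 of the 6 genes, out of 8251 genes named by a single symbol. No probe set carried Cfd as its only symbol, so Cfd, which encodes the fat cell protease adipsin, was not analysed here. The genes were picked for their roles, and Adipoq and Lpl were also selected on their opposite J minus NJ differences in these same arrays. All J minus NJ differences of the members are therefore given as descriptions and support no test.

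Total RNA of murine skeletal muscle was measured on 4 arrays at a time of 0 h, 2 titled J (replicates 1a and 1c) and 2 titled NJ (replicates 1a and 1d). The title of the series names the neuromuscular junction, where a motor nerve meets the muscle fibre it drives. All 4 titles also carry the code Ctr. The titles do not spell out any of these codes, and the labels used here give no genotype, strain, age or treatment. They do not say whether each array had its own animal, and the spread over arrays may then be technical.

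White fat cells lie between the bundles of muscle fibres. They store triglyceride in a lipid droplet and secrete hormones such as adiponectin. Lipoprotein lipase on the capillary wall frees fatty acids from circulating lipoproteins, and fat cells store these while muscle fibres largely burn them. Pparg, a nuclear receptor that heterodimerises with retinoid X receptors, drives fat cell differentiation. Adipoq, Fabp4 and Lpl are known targets of it. Lpl is also made by muscle fibres, and Fabp4 by capillary endothelium and macrophages. In RNA of a whole tissue, fewer cells of a type and less RNA per cell cannot be told apart.

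Adipoq had the largest difference among the 6 member probe sets that were bright enough to test, and the bases before its start of transcription are shown for that reason. They lie on mouse chr16:23146286-23146535 (GRCm38.p6, plus strand, RefSeq), the 250 bases that end just before the annotated start. Capitals mark matches to CCAAT on either strand.

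Adipoq: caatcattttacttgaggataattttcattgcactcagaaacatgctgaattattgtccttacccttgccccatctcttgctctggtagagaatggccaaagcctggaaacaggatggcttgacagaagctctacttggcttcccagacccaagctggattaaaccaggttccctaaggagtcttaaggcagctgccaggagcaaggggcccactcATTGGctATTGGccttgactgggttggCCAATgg

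CCAAT occurred 3 times in this window, with the leftmost base 34, 27 and 7 bases before the start. Of the 32851 windows of this length in the promoter table, 33.8% held the motif at least once. The E-box CANNTG was found 1 time, against 66.2% of windows with a match, and it overlapped no CCAAT match. AGGTCA, the core repeat bound by nuclear receptors, TATAAA and the C/EBP pattern TTNCGNAA were not among these letters. They occurred in 14.0%, 12.4% and 2.04% of windows. The table also held windows for Cfd and for 3 starts of Pparg.

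Signals are the deposited linear values. Differences are J minus NJ of log2(signal + 32) after quantile normalisation, each with the standard error of a limma fit across the 9317 probe sets whose mean lay above the 25th percentile, over 2 arrays per group. The scale understates differences of dim probe sets. Limma called 0% of these probe sets higher and 0% lower in J once p-values were adjusted by Benjamini-Hochberg (threshold 0.05, smallest adjusted p 0.999). An unadjusted limma p under 0.05 was found for 199, fewer than the 466 expected by chance. After normalisation the J arrays both exceeded the NJ arrays for 13.6% of tested probe sets, and both lay under them for 12.8%. On the deposited signals these shares were 14.3% and 12%. With 2 arrays in each group the smallest two-sided p of an exact permutation test is 0.333. J 1a and NJ 1a were deposited with full digits and J 1c and NJ 1d with 1 decimal. With this number format as a term, limma called 0.0429% higher and 0.0429% lower, and none of these was a member or a gene of the lipid lists below. J 1c stood apart in some muscle fibre genes. The median log2 level of 11 tested fibre markers was 16.15 on J 1a and 14.58 on J 1c. It was 16.31 on NJ 1a and 16.07 on NJ 1d. After normalisation, markers such as Myh4 (14.58) and Actn3 (13.94) were lowest on J 1c, but Acta1 (16.60) was highest there. The deposited Acta1 signal was instead lowest on J 1c, at 32990. It was 207533 on J 1a, 123803 on NJ 1a and 87672 on NJ 1d. Ckm was level on J 1c and NJ 1a after normalisation (15.37), but its deposited signals there were 23349 and 52006. The summed deposited signal of the markers was 214842 on J 1c, against 1268989 on J 1a, 1030229 on NJ 1a and 763556 on NJ 1d.

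Adipoq encodes adiponectin, a hormone made almost only by fat cells. Its probe set 99104_at had signals of 1295 and 1132 on the J arrays, against 335 and 246 on the NJ arrays. The J arrays differed from each other by 1.14-fold and the NJ arrays by 1.36-fold, and the groups did not overlap. The difference was 1.90 ± 0.59 (standard error, n = 2 each), a 3.74-fold higher level in J on this scale. Taken pair by pair it was 1.98 for J 1a minus NJ 1a (the 1a pair) and 1.83 for J 1c minus NJ 1d (the 1c-1d pair), nearly the same size. Within its array the probe set stood at the 81.4th and 78.8th percentile of brightness on the J arrays, against the 47.8th and 47.1st on the NJ arrays. By absolute difference it ranked 132nd of the 9317 tested probe sets.

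**Figure D1:**
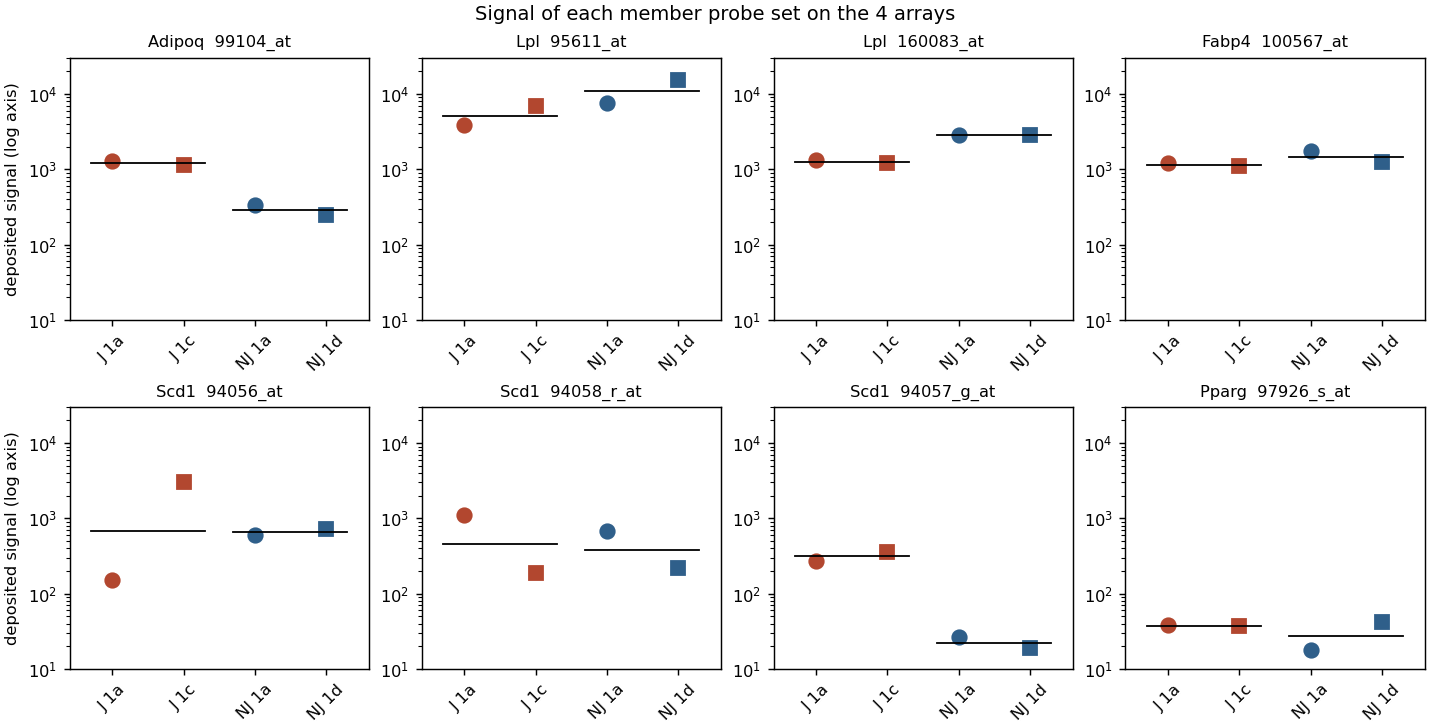
Deposited signal (log axis) of the 8 member probe sets on each array, J arrays at the left of each panel and NJ arrays at the right, with circles for 1a and squares for 1c or 1d. The line is the geometric mean of a group, and the Adipoq signals of 1295 and 1132 in J sit apart from 335 and 246 in NJ, while both Lpl probe sets are lower in J.

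Lpl, lipoprotein lipase, ran the other way at both of its probe sets. At 160083_at the signals were 1332 and 1197 on the J arrays, against 2877 and 2848 on the NJ arrays. The J arrays were within 1.11-fold of each other and the NJ arrays within 1.01-fold. The difference was −1.19 ± 0.39 (standard error, n = 2 each), or 0.439-fold, with −1.16 in the 1a pair and −1.21 in the 1c-1d pair.

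The brighter Lpl probe set, 95611_at, gave 3923 and 6833 on the J arrays, against 7615 and 15492 on the NJ arrays. These groups did not overlap either, but each was wider, with 1.74-fold between the J arrays and 2.03-fold between the NJ arrays. The lowest NJ signal exceeded the highest J signal only narrowly. The difference was −0.96 ± 0.43, or 0.515-fold, with −0.89 in the 1a pair and −1.03 in the 1c-1d pair. Without NJ 1d it was −0.55 and without NJ 1a −1.37. The probe set lay between the 95.0th and 98.7th percentile of every array, and its log2 values correlated with those of 160083_at at r = 0.72 over 4 arrays.

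Fabp4, the fatty acid binding protein of fat cells and capillaries, had signals of 1215 and 1104 on the J arrays, against 1747 and 1252 on the NJ arrays. The groups did not overlap, but J 1a and NJ 1d were nearly level. The difference was −0.42 ± 0.44 (standard error, n = 2 each), or 0.749-fold, which is smaller than its standard error. It was −0.59 in the 1a pair and −0.25 in the 1c-1d pair, and −0.18 without NJ 1a.

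Scd1 encodes stearoyl-CoA desaturase, which puts the double bond into newly made fatty acids, and its 3 probe sets gave 3 different patterns. The suffixes _g and _r mark probe sets that departed from the array maker's standard design. At 94056_at the signals were 151 and 3043 on the J arrays, against 607 and 732 on the NJ arrays. The J arrays differed by 20.2-fold and lay on either side of both NJ arrays, which differed by 1.21-fold. The difference of −0.05 ± 1.13 thus averaged −1.95 in the 1a pair and 1.86 in the 1c-1d pair.

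At 94058_r_at Scd1 had 1099 and 186 on the J arrays, against 678 and 218 on the NJ arrays. Here both 1a arrays were high and both other arrays low, and the difference was 0.21 ± 0.88. At 94057_g_at the signals were 274 and 357 on the J arrays, against 26.3 and 19.2 on the NJ arrays, which did not overlap. The difference was 2.57 ± 0.70 from a fit without the filter, with 2.37 in the 1a pair and 2.77 in the 1c-1d pair. The probe set was too dim on average to enter the tested set, since its NJ values stood at the 2.48th and 5.26th percentile, against the 42.0th and 53.7th in J. With a pseudocount of 1 the difference was 3.64, and with one of 100 it was 1.69, so its size depends on that choice. With 32 it was larger than that of Adipoq, and with 100 it was level with it (1.71). Across the 4 arrays 94056_at and 94058_r_at ran opposite to each other (r = −0.91), and 94057_g_at followed neither of them (r = 0.16 with 94056_at and −0.07 with 94058_r_at). No single direction can therefore be given for Scd1.

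Pparg, the nuclear receptor named above, was dim on all arrays. Its probe set 97926_s_at had signals of 37.9 and 37.7 on the J arrays, against 18.1 and 42.5 on the NJ arrays. The J values lay between the NJ values, and the probe set stood between the 1.08th and 14.2nd percentile of each array. The difference from the fit without the filter was 0.10 ± 0.44, with 0.42 in the 1a pair and −0.22 in the 1c-1d pair.

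**Figure D2:**
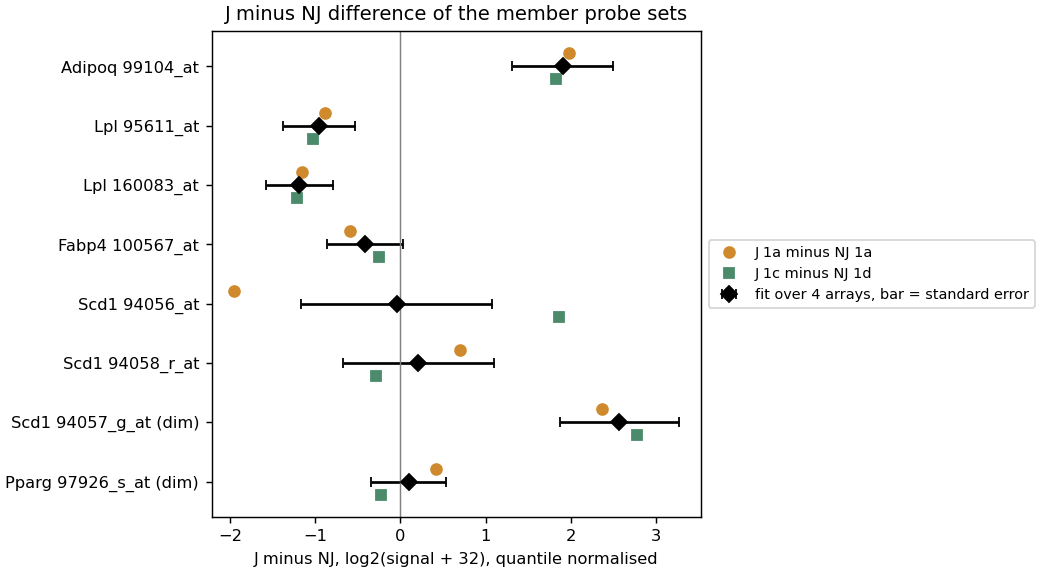
J minus NJ difference of each member probe set in log2(signal + 32) after quantile normalisation, with the fit over all arrays (diamond, bar for its standard error), J 1a minus NJ 1a (circle) and J 1c minus NJ 1d (square). The circle and square lie close together for Adipoq (1.98 and 1.83) and for Lpl 160083_at (−1.16 and −1.21), and on opposite sides of 0 for Scd1 94056_at (−1.95 and 1.86).

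Of the 8 member probe sets, 2 had J arrays that both exceeded the NJ arrays (Adipoq and Scd1 94057_g_at) and 3 had them below (both of Lpl and Fabp4). Of the 6 that passed the filter, these counts were 1 and 3. The choice of the members used this contrast, so the counts are not read against the shares of 13.6% and 12.8% over all tested probe sets. The 94057_g_at probe set of Scd1 and that of Pparg did not pass.

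The probe sets whose 4 values most resembled each member's brightest probe set were found by the root mean square difference after each was centred on its own mean. For Adipoq these were Sri, the calcium-binding protein sorcin (0.063), Rlim, a ubiquitin ligase (0.073), and S100a8, a calcium-binding protein of neutrophils (0.10). S100a8 had signals of 405 and 263 on the J arrays, against 67.7 and 33.4 on the NJ arrays. For Lpl they were Uqcrc2, a core subunit of respiratory complex III (0.044), S100a4, another calcium-binding protein (0.054), and the tyrosine kinase Fer (0.088). Uqcrc2 had signals of 18207 and 19287 on the J arrays, against 34672 and 61680 on the NJ arrays.

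For Fabp4 the nearest were Ryk, a Wnt receptor (0.027), Pithd1 (0.029) and Mbd3, a subunit of a chromatin remodelling complex (0.033). For Scd1 94056_at they were Eed, a Polycomb protein (0.37), the RNA-binding protein Hnrnpr (0.37) and Egf, epidermal growth factor (0.41). For Pparg they were the transcription factor Klf10 (0.027), the phosphodiesterase Smpdl3a (0.032) and the chaperonin subunit Cct4 (0.033). With 4 arrays such likeness is common. Of 8296 tested probe sets with 1 symbol, between 140 and 257 correlated with a given member at r over 0.95.

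Further genes of the same pathways were taken from 8 lists, which were chosen with earlier results of these data known. They held 164 genes besides the members, of which 126 were on the array and 112 passed the brightness filter, each represented by its brightest probe set. Limma called 0 of the 112 in either direction after adjustment over all probe sets. An unadjusted limma p under 0.05 was found for 3 of the 112, beside 199 of all 9317 tested probe sets. The J arrays both exceeded the NJ arrays for 11 (9.82%, against 13.6% of all tested probe sets) and lay below them for 20 (17.9%, against 12.8%). On the deposited signals these counts were 15 and 19 of the 112, against 14.3% and 12% of all tested probe sets. Their median difference was −0.07, beside −0.01 over all tested probe sets.

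**Figure D3:**
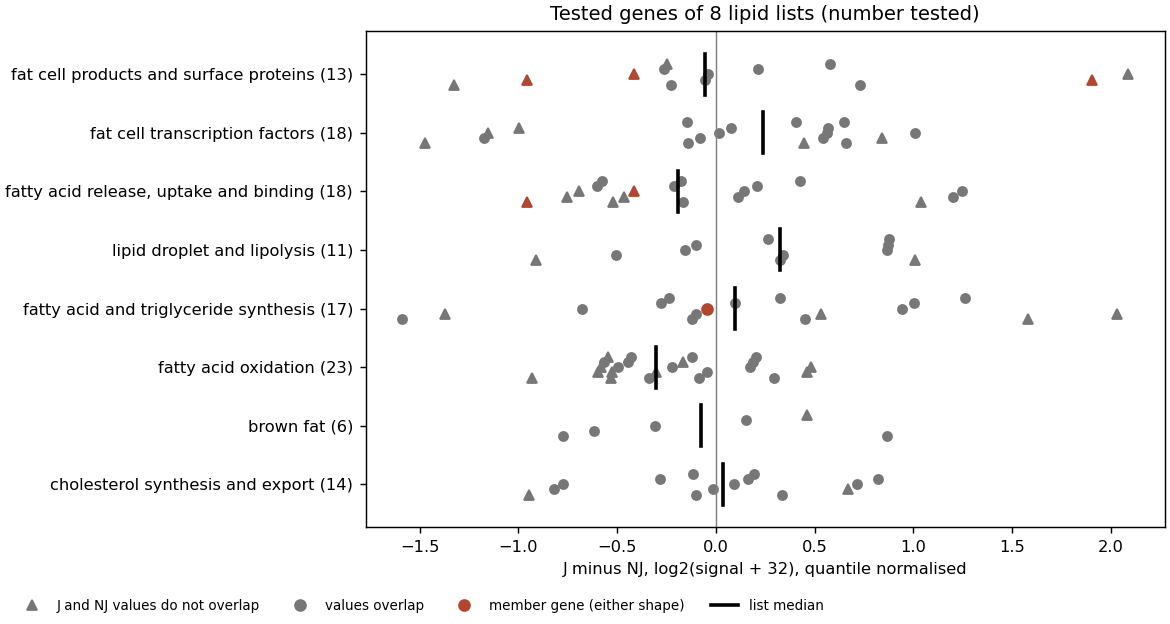
J minus NJ difference in log2(signal + 32) of every tested gene of the 8 lists, with the number tested in parentheses, triangles where J and NJ values do not overlap and a bar for the list median. Member genes are red, and the medians lie between −0.31 for fatty acid oxidation and 0.32 for lipid droplet and lipolysis.

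Among products and surface proteins of fat cells, 5 of 13 tested genes were higher and 8 were lower (median −0.06). Lep, the satiety hormone leptin, had signals of 3018 and 2124 on the J arrays, against 2539 and 2739 on the NJ arrays, and the groups overlapped. Its other probe set was far dimmer, with 150 and 207 on the J arrays, against 279 and 123 on the NJ arrays. Apod, an apolipoprotein, had 728 and 462 on the J arrays, against 240.1 and 39.6 on the NJ arrays, a difference of 2.09 ± 0.84. Serpinf1 differed by −1.33 ± 0.57 at the brightest probe set but by 0.42 at its other one. Slc2a4, the insulin-responsive glucose transporter of muscle and fat, differed by −0.26 ± 0.36. Retn, the fat cell hormone resistin, was too dim to test, with signals of 128 and 71.5 on the J arrays, against 74.6 and 58.1 on the NJ arrays. Rbp4, which carries retinol, was also too dim, with 295 and 47.9 on the J arrays, against 35.6 and 19.9 on the NJ arrays. The Lep groups thus overlapped where those of Adipoq did not, and Retn and Rbp4 were highest on J 1a.

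Transcription factors of fat cell differentiation had 11 of 18 tested genes higher and 7 lower, with a median of 0.24. Cebpa differed by −0.08 ± 0.44 with overlapping groups. Cebpb, which acts early in differentiation, had 511 and 523 on the J arrays, against 1502 and 828 on the NJ arrays, a difference of −1.15 ± 0.56. Cebpd, its early partner, had 1779 and 1345 on the J arrays, against 1129 and 1066 on the NJ arrays, a difference of 0.44 ± 0.44. The values of the C/EBP family thus differed in sign, though that of Cebpd was about as large as its standard error and that of Cebpa was smaller. Srebf1, which turns on fatty acid synthesis, had 4495 and 3800 on the J arrays, against 3700 and 2111 on the NJ arrays. It differed by 0.57 ± 0.42, and its groups overlapped only after normalisation. Of the retinoid X receptors, Rxrg differed by 0.84 ± 0.78, while Rxra differed by 0.02 at its brightest probe set and 0.78 at its other one. Ebf1, another factor of fat cell and B cell development, had 139 and 236 on the J arrays, against 619 and 451 on the NJ arrays, a difference of −1.47 ± 0.77.

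In fatty acid release, uptake and binding, 7 of 18 tested genes were higher and 11 were lower (median −0.19). After normalisation the J values lay below the NJ values for 6 of the 18 genes, where the share of all tested probe sets was 12.8%. On the deposited signals they did so for only 3 of them (Lpl, Fabp3 and Fabp4), where that share was 12%. Both counts include the members Lpl and Fabp4, whose choice used this contrast, so they are not read against these shares. The J values lay above the NJ values on both scales for Apoc2, the cofactor of lipoprotein lipase. Apoc2 had 283 and 328 on the J arrays, against 145 and 105 on the NJ arrays, a difference of 1.04 ± 0.77. Its sign was opposite to that of Lpl, which was picked with this contrast known, and a relation between them was not tested. Fabp3, the binding protein of muscle fibres, had 5680.1 and 3849 on the J arrays, against 6018 and 8575 on the NJ arrays, a difference of −0.52 ± 0.39. Slc27a1, a fatty acid transporter, differed by −0.75 ± 0.79. Cd36, the fatty acid translocase of muscle, fat and capillaries, differed by −0.58 ± 0.64 with overlapping groups. Fabp5 differed by 1.25 ± 0.70, but by −0.20 in the 1a pair and 2.69 in the 1c-1d pair. The lipoprotein receptor Vldlr differed by 0.21 at the brightest probe set but by −0.02 at its other one.

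Lipid droplet and lipolysis genes had 7 of 11 tested genes higher and 4 lower. Their median of 0.32 was 0.81 in the 1a pair and −0.28 in the 1c-1d pair. Plin2, a droplet coat protein of many cells, differed by 0.88 ± 0.75, with 2.13 and −0.38 in those pairs. Plin4, a coat protein of fat and muscle, had 268 and 479 on the J arrays, against 796 and 539 on the NJ arrays, a difference of −0.91 ± 0.69. Vim, the intermediate filament vimentin that surrounds droplets, had 515 and 359 on the J arrays, against 254 and 140.3 on the NJ arrays, a difference of 1.01 ± 0.75. The lipases Pnpla2, Lipe and Mgll, which release fatty acids from stored triglyceride, had overlapping groups, at 0.32 ± 0.50, −0.51 ± 0.88 and 0.26 ± 0.51. Cidea, a droplet protein, had 133 and 273 on the J arrays, against 60.6 and 118 on the NJ arrays. It differed by 0.87 ± 0.83, and its groups overlapped only after normalisation. Cidec, a droplet protein of fat cells, was too dim to test, with 82.0 and 24 on the J arrays, against 53.1 and 13 on the NJ arrays.

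Synthesis of fatty acids and triglycerides had 9 of 17 tested genes higher and 8 lower, with a median of 0.10. Fasn, fatty acid synthase, had 721 and 667 on the J arrays, against 189 and 101 on the NJ arrays. The J arrays were nearly equal, the groups did not overlap, and the difference was 2.03 ± 0.74, or 4.08-fold. It was 1.86 in the 1a pair and 2.20 in the 1c-1d pair. Elovl6, which lengthens the products of Fasn, had 314 and 284 on the J arrays, against 130 and 34.6 on the NJ arrays, a difference of 1.58 ± 0.78. Its other probe set was too dim to test and ran the other way, with 43.3 and 42.0 on the J arrays, against 262 and 170.0 on the NJ arrays. Acly, which supplies the acetyl-CoA, had 42.3 and 1084 on the J arrays, against 995 and 548 on the NJ arrays. Elovl5, an elongase of polyunsaturated fatty acids, had 140 and 761 on the J arrays, against 891 and 797 on the NJ arrays. Both were low on J 1a, as was Scd1 94056_at, while Fasn was not. Low values on J 1a also occurred outside the lipid lists. The endothelial marker Kdr had 129 on J 1a and 1480 on J 1c, against 987 and 1331 on the NJ arrays. The leukocyte marker Cd79a had 344 on J 1a and 1696 on J 1c, against 1591 and 1292 on the NJ arrays. Scd2, a relative of Scd1, differed by 1.0 at its brightest probe set and −0.54 at its other one. The acyltransferases Gpam and Dgat1 differed by −0.68 ± 0.42 and −0.10 ± 0.69. The other probe set of Dgat1 differed by −0.78 ± 0.77, with J values below NJ values.

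Fatty acid oxidation, the breakdown of fatty acids in mitochondria and peroxisomes, had 6 of 23 tested genes higher and 17 lower, with a median of −0.31. Both J values lay below both NJ values for 8 of the 23, against 12.8% of all tested probe sets, and above for 2, against 13.6%. On the deposited signals 9 lay below, against 12%, and 2 above, against 14.3%. Acadl, the long-chain acyl-CoA dehydrogenase, had 1367 and 2161 on the J arrays, against 3785 and 2736 on the NJ arrays, a difference of −0.93 ± 0.42. Acadm, the medium-chain enzyme, had 3885 and 4427 on the J arrays, against 6557 and 5988 on the NJ arrays, a difference of −0.53 ± 0.36. Acaa1a, a thiolase of peroxisomes, differed by 0.48 ± 0.40. Of the regulators, Ppara differed by 0.17 ± 0.54 with overlapping groups. Ppargc1a, a coactivator that raises mitochondrial number, had 225 and 174 on the J arrays, against 169 and 94.4 on the NJ arrays, a difference of 0.46 ± 0.76. The list's median was −0.15 in the 1a pair and −0.36 in the 1c-1d pair. Of 11 tested muscle fibre markers, 3 had positive differences and 8 negative ones (median −0.31), with −0.07 and −0.77 as the medians in the same pairs. Their part in this result, and in the lower Lpl signal, was not tested.

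**Figure D4:**
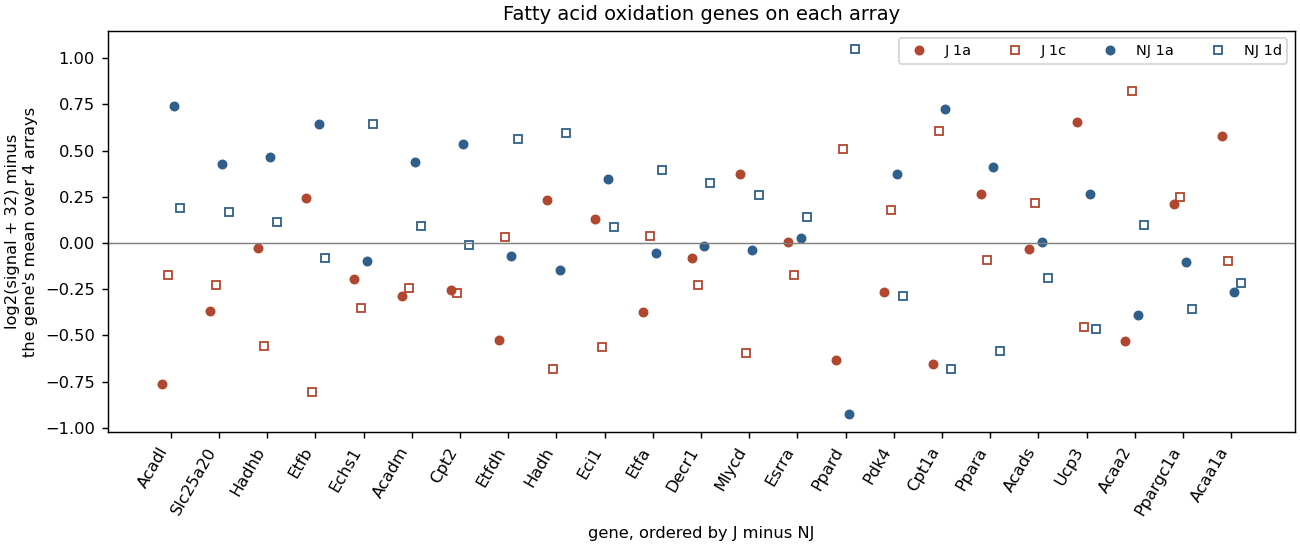
Level of the 23 tested fatty acid oxidation genes on each array, as log2(signal + 32) after quantile normalisation minus the gene's mean over 4 arrays, ordered by J minus NJ (red J, blue NJ, filled 1a, open 1c or 1d). The J symbols lie under the NJ symbols for genes at the left such as Acadl (−0.93) and Acadm (−0.53), and above them for Acaa1a (0.48) at the right.

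Brown fat genes had 3 of 6 tested genes higher and 3 lower (median −0.08), and Ucp1, the uncoupling protein that defines brown fat, had 76.5 and 153 on the J arrays, against 331 and 114 on the NJ arrays. These groups overlapped. The other probe set of Ucp1 was too dim to test, with 165.57 and 50.6 on the J arrays, against 64.45 and 161.3 on the NJ arrays. Cholesterol synthesis and export had 7 of 14 higher and 7 lower (median 0.04). The values of its exporters differed in sign. Abcg1 differed by 0.67 ± 0.44, with 1633 and 1636 on the J arrays, against 1049 and 918 on the NJ arrays. Abca1 differed by −0.95 ± 0.78.

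Of 9 genes taken as defining fat cells, Adipoq, Fabp4, Lep and Lipe were bright enough to test. Pparg, Retn and Cidec were too dim, and Cfd and Plin1 had no probe set named for them alone. Of the 4 tested, Adipoq had a positive difference and the other 3 negative ones, of which those of Lep (−0.06 ± 0.40) and Lipe came with overlapping groups. The 3 dim genes had small positive differences, of 0.10 for Pparg, 0.31 for Retn and 0.31 for Cidec, so that 4 of the 7 measured genes were positive and 3 negative. Markers of other cells were counted beside these. Over all tested probe sets the J values lay above the NJ values for 13.6% and below them for 12.8%. Endothelial markers had 4 of 9 tested genes higher and 5 lower (median −0.11), with summed signals of 9461 to 14387 on the J arrays, against 10895 to 11017 on the NJ arrays. The J values lay above the NJ values for 1 of the 9, Vwf (1.87 ± 0.72), and below for 1, Tie1 (−0.40 ± 0.50). Macrophage and leukocyte markers had 8 of 12 higher and 4 lower (median 0.11), with summed signals of 6007 to 7383 on the J arrays, against 5094 to 6978 on the NJ arrays. The J values lay above for 3 of the 12, among them Lsp1 (2.54 ± 0.77), and below for 1, Fcer1g (−2.55 ± 0.82). Fibroblast and preadipocyte markers had 6 of 10 higher and 4 lower (median 0.29), with summed signals of 45030 to 111308 on the J arrays, against 53827 to 62531 on the NJ arrays. Most of each sum came from Dcn, with 82874 and 25304 on the J arrays, against 42425 and 36133 on the NJ arrays. The J values lay above the NJ values for 3 of the 10, among them Postn (3.43 ± 0.81), and below for 0. Blood cell markers had 4 of 4 higher (median 0.41), all with overlapping groups. Their median was 1.04 in the 1a pair but −0.11 in the 1c-1d pair. Their summed signals were 22171 to 50247 on the J arrays, against 34871 to 35186 on the NJ arrays. Most of each of these sums came from Hba-a1, with 40486 and 16397 on the J arrays, against 29770 and 28704 on the NJ arrays. No marker was listed at 0 on any array, and the part of these cells in the members' differences was not tested.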

How the data were processed

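Total RNA of mouse skeletal muscle was measured on 4 arrays, grouped as J and NJ from their titles. The deposited values are 1 linear intensity per probe set and array, and the authors' software for them is not given in the sources used here. A mean after trimming 2% at each end was 800.5 to 800.6 in all columns, so the deposited intensities were scaled to a common level. They carry no detection calls. The number of arrays limits the precision.

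Gene names came from the platform's annotation table, which gave 1 symbol for 10833 probe sets, several for 396 and none for 1193, beside 66 controls. Intensities were taken as log2(value + 32) and quantile normalised, since column medians ranged from 8.29 to 8.67. Controls entered the normalisation and the 25th percentile filter and were left out of the 9317 tested. The J minus NJ contrast was fitted in R 4.3.3 with lmFit and trended eBayes of limma 3.58.1, which left 2 residual degrees of freedom, with Benjamini-Hochberg adjustment across the tested probe sets. Values of probe sets under the filter come from a fit without it. The fit was tested on simulated data.

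The members and lists were chosen with earlier results of these data known. Named genes were all members, 36 genes fixed by role (5 of which, Acsl1, Plin1, Acaca, Cpt1b and Hadha, had no probe set named for them alone), in each list the gene per direction with the largest difference among those whose groups did not overlap, and the 3 nearest patterns per member. Named genes outside that rule serve to give marker lists. The alternatives were the deposited scale, median centring, pseudocounts of 1 and 100, no filter or one at the median, no intensity trend, a number-format term, leaving out each array, and averaging the probe sets of a gene. Python 3.11.15 and matplotlib 3.10.9 drew the figures.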

Additional observations from a re-analysis of the deposited data

How the results depend on the processing

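Adipoq, both Lpl probe sets, Fabp4 and Scd1 94057_g_at kept their direction under all 12 alternatives run. Most of these runs could not have changed it. The filters, the intensity trend and the number-format term leave these differences as they are. Leaving out a single array cannot reverse groups that do not overlap. At most another scaling could have done so. Without each array in turn, Adipoq ranged from 1.81 to 2.0, Lpl 160083_at from −1.26 to −1.11, Lpl 95611_at from −1.37 to −0.55, Fabp4 from −0.65 to −0.18 and Scd1 94057_g_at from 2.25 to 2.89. Scd1 94056_at ranged from −2.15 to 2.06, Scd1 94058_r_at from −0.90 to 1.32 and Pparg from −0.39 to 0.59, so these have no stable direction. Scd1 94056_at was also 0.10 without normalisation and 0.04 when arrays were centred on their medians. With a pseudocount of 100, Adipoq was 1.71 and Scd1 94057_g_at 1.69. A pseudocount of 1 gave 3.64 for Scd1 94057_g_at. The term for number format raised the probe sets called to 4 higher and 4 lower, and leaving out any array gave 0 of each.

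Without each array in turn, the list median ranged from −0.47 (without J 1a) to −0.0069 (without J 1c) for fatty acid uptake and from 0.017 (without J 1a) to 0.92 (without J 1c) for lipid droplets. It ranged from −0.35 to −0.18 for oxidation, −0.06 to 0.30 for synthesis, −0.02 to 0.24 for transcription factors, −0.19 to 0.15 for fat cell products, −0.37 to 0.33 for brown fat and −0.08 to 0.17 for cholesterol genes. The median over all tested probe sets was 0.02 without normalisation and −0.04 with such centring. No paired analysis was possible by replicate label because the groups share only label 1a. The number-format term sets J 1a beside NJ 1a and J 1c beside NJ 1d, by how their values were written and not by any label. With 2 arrays per group, an exact permutation test cannot pass 0.05.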
